A study of Mus musculus with 4 samples.

Results

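Sox2 and the transcript that overlaps it, Sox2ot, were followed here on a tiling array of nuclear RNA from mouse cells. The probes were chosen by position: all non-control probes inside chr3:34400001-34700000 (mm9), 1698 of the 48316 probes of the array. NPC, neural progenitor cells derived with the N2B27 protocol, were set against ESC, the embryonic stem cells of the 46c line from which they came, with 2 arrays for each cell type. No other genotype, drug or time is given in the labels, and whether the arrays of a cell type stem from independent cultures is not stated. The p-values below therefore reflect array-to-array spread that may be purely technical. The RNA was amplified and labelled without keeping its strand, so a probe reads RNA of either strand.

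Sox2 is a transcription factor of the HMG box family that keeps embryonic stem cells pluripotent and is also a lasting marker of neural progenitors. Sox2ot is a long noncoding RNA whose gene contains the whole of Sox2, a gene without introns, and it is known from the brain and from neural differentiation. In embryonic stem cells a distal enhancer beyond the end of Sox2ot drives Sox2.

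The region was cut into intervals with the approximate borders 34460000-34585000 for Sox2ot and 34548900-34551400 for Sox2. The upstream flank, from 34400001 to 34459999, held 482 probes. Sox2ot left of Sox2 (at lower coordinates) held 861 probes, Sox2 held 24, and Sox2ot right of Sox2 held 331. The Sox2ot borders coincide with those of a stretch of signal seen earlier in these data, so they are not independent of the arrays. The last probe of the region ends at 34581595. The sequence past it, with the ESC enhancer near 34650000-34660000, holds 0 probes and is not analysed here.

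In the RefSeq gene table (GRCm38.p6) the order along Sox2ot is its start, the noncoding RNA Gm42205, the microRNA gene Mir1897 and then Sox2. Gm42205 and Mir1897 therefore lie within the left part. The mm9 probes were not matched to either, so gene order alone does not tie them to the large difference described below. RNA of Gm42205 and of Sox2ot cannot be told apart in the left part. A mature microRNA of Mir1897 is shown with its seed (bases 2 to 8) in capitals. The promoter of Sox2 is shown because the ESC and NPC profiles come close to each other next to it. Both come from RefSeq on GRCm38.p6, plus strand, the first at chr3:34638511-34638532 and the second at chr3:34649745-34650044. The capitals in the promoter mark the single CCAAT box, found on the opposite strand as ATTGG. This box was searched on both strands and was held by 37.4% of 32851 promoters of the same length. The TATA box, spelled TATAAA, was searched in the same way, had 0 matches in this window and is held by 13.6% of promoters. The spelling ACAATG of the core site of SOX factors likewise had 0 matches and is held by 12.6%. Other spellings of that site were not searched, so the 0 does not mean that this promoter lacks a SOX site. The octamer ATGCAAAT had 0 matches and is held by 1.74%.
mmu-miR-1897-3p: uCAACUCGuucuguccggugag
Sox2 promoter: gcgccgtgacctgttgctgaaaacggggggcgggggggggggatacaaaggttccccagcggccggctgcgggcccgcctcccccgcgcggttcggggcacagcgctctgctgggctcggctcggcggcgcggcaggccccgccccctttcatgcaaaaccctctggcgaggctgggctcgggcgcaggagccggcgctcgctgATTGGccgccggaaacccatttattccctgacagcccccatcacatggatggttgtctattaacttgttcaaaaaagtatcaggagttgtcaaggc

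Values are log2 intensity relative to a scaling percentile of each array. A spot counts as well above background by the scanner program's own mark, which 54.1% and 54.3% of all probes carried in NPC 1 and NPC 2, against 42.5% and 44.6% in ESC 1 and ESC 2, and 1.93% of the negative control spots over the 4 arrays. The median NPC minus ESC of all 964 windows of 5 kb on the array was -0.34, and over 9 scalings it lay between -0.72 and 0.26. Each interval is therefore also given relative to this median. Many probes without signal sat at a floor of -6.07 and -6.36 in NPC 1 and NPC 2, against -5.77 and -5.88 in ESC 1 and ESC 2. A probe at this floor on all arrays has a change of -0.39 without any signal. With a common floor on all arrays the median of all windows was -0.18. With that floor 128 of the 964 windows were called lower in NPC, against 282 in the processing used here. The share of windows with both NPC arrays below both ESC arrays is not given with a common floor. What else adds to this median was not tested. Markers of either cell type were not placed on mm9, so the labels were not checked against them. The number of arrays limits the precision throughout.

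The left part of Sox2ot rose in NPC. Its mean level was -1.70 and -2.22 in NPC 1 and NPC 2, against -4.01 and -4.08 in ESC 1 and ESC 2. Both NPC arrays lay far above both ESC arrays, which were almost equal. The change was 2.09 on the log2 scale (SE 0.22), a 4.25-fold difference of mean log2 signal, with an adjusted p of 0.00695 (limma, Benjamini-Hochberg over 964 windows and 5 intervals), and lay 2.43 above the array-wide median. In a population of cells, fewer cells with the transcript and less RNA per cell cannot be told apart. With normexp background correction and quantile normalization the change was 0.66, and with the median over probes it was 3.20. Without ESC 1 or without ESC 2 it was 2.12 and 2.05 but no longer passed (limma adjusted p = 0.111 and 0.113).

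**Figure D1:**
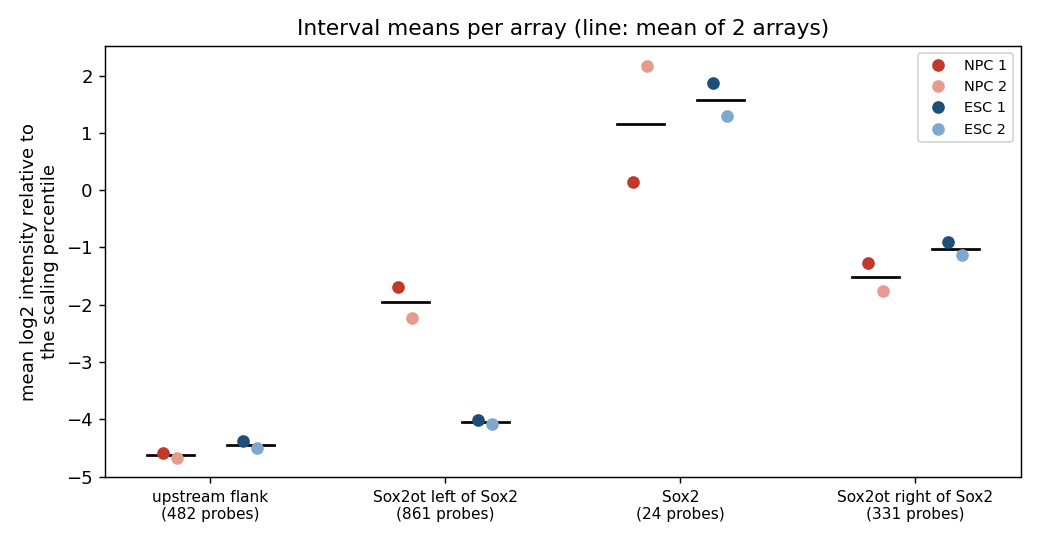
Mean log2 intensity of each interval on each array, NPC arrays left of ESC arrays, with a line at the mean of the 2 arrays of a cell type. In the left part of Sox2ot the NPC arrays sit at -1.70 and -2.22 and the ESC arrays at -4.01 and -4.08, while in Sox2 the NPC arrays stand apart from each other at 0.13 and 2.18.

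All 17 windows of 5 kb within the left part were called higher in NPC, against 22.0% of the windows of the whole array. Under all 9 scalings 16 of them were called, against 19.2% of all windows. In each of the 17, both NPC arrays were above both ESC arrays, which held for 27.7% of all windows. Outside chromosome 12 and this region, 32 of 759 windows were called higher, and the largest change there was 1.79. The median change of the 17 windows was 2.37, above every one of those 759. On chromosome 12, where 163 of 168 windows rose, 61 had a change above that median.

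The largest rise lay at 34490001-34495000 in the processing used here. With normexp (0.98 against 0.99) and without NPC 2 (3.05 against 3.26) the window from 34475001 changed more. Levels in the window from 34490001 were -1.38 and -1.50 in NPC 1 and NPC 2, against -4.36 and -4.51 in ESC 1 and ESC 2, a change of 2.99 (SE 0.14, limma adjusted p = 0.0052). The next 4 were the windows from 34470001 (2.72), 34475001 (2.71), 34505001 (2.66) and 34465001 (2.59). The rise was smaller closer to Sox2. The first 12 windows changed by 2.02 to 2.99 and the last 5 by 0.90 to 1.74. Across the 17 windows the change and the position had a Pearson r of -0.74 and a Spearman rho of -0.70, a description over neighbouring windows of the same 4 arrays. The smallest rise, 0.90 (SE 0.14, limma adjusted p = 0.0122), was at 34535001-34540000 and is the one window not called under all 9 scalings, where its change lay between 0.12 and 1.51.

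**Figure D2:**
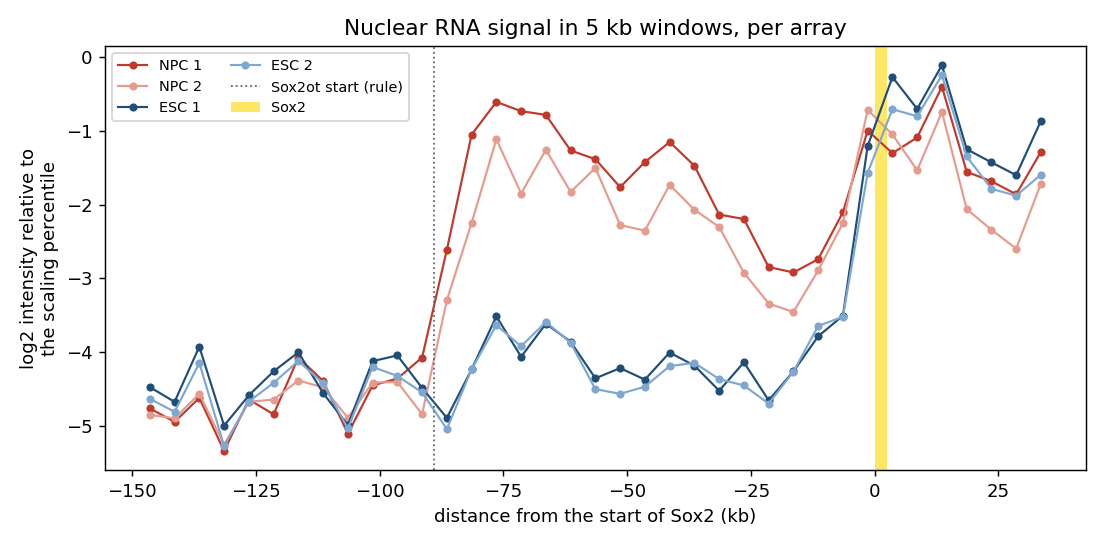
Mean log2 intensity of each 5 kb window on each of the 4 arrays, against distance from the start of Sox2 in kb. NPC 1 and NPC 2 leave ESC 1 and ESC 2 at the start of Sox2ot and come close to them again near Sox2. Both NPC arrays are above both ESC arrays in the window around the start of Sox2 (change 0.53). In the window around its end they are below (-0.69).

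Most of this sequence had little signal in ESC. Well above background were 81.5% and 77.7% of its 861 probes in NPC 1 and NPC 2, against 34.4% and 36.0% in ESC 1 and ESC 2. In the upstream flank the same shares were 28.0% and 33.2% in NPC and 25.7% and 25.3% in ESC, so the ESC share in the left part was closer to that of the flank than to that of NPC. A set of 319 probes was well above background on both NPC arrays and on neither ESC array, while 0 probes showed the opposite. For such probes the change is a lower bound, computed from the lowest signal above background on each ESC array or the probe's own signal, whichever was higher. The bound was above 1 for 313 of them, reached 2-fold or more for 235, and was at least 56.6-fold higher in NPC at the top. The share of probes over the whole array with signal in NPC alone is not given here. NPC arrays marked more of all probes above background (54.1% and 54.3%) than ESC arrays did (42.5% and 44.6%). Of 856 probes tested, 385 were called higher, which is 45.0%, against 10.7% of all probes. The lower calls numbered 4 of 856 (0.467%, against 1.58% of all probes). They started at 34503077, 34536225, 34541324 and 34542543 and are named because they are few, after their values were seen. Of these only the probe at 34541324 was above background on all 4 arrays, with -3.54 and -2.81 in NPC 1 and NPC 2, against -1.12 and -0.60 in ESC 1 and ESC 2. The other 3 were above background on neither NPC array and on at most 1 ESC array.

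**Figure D3:**
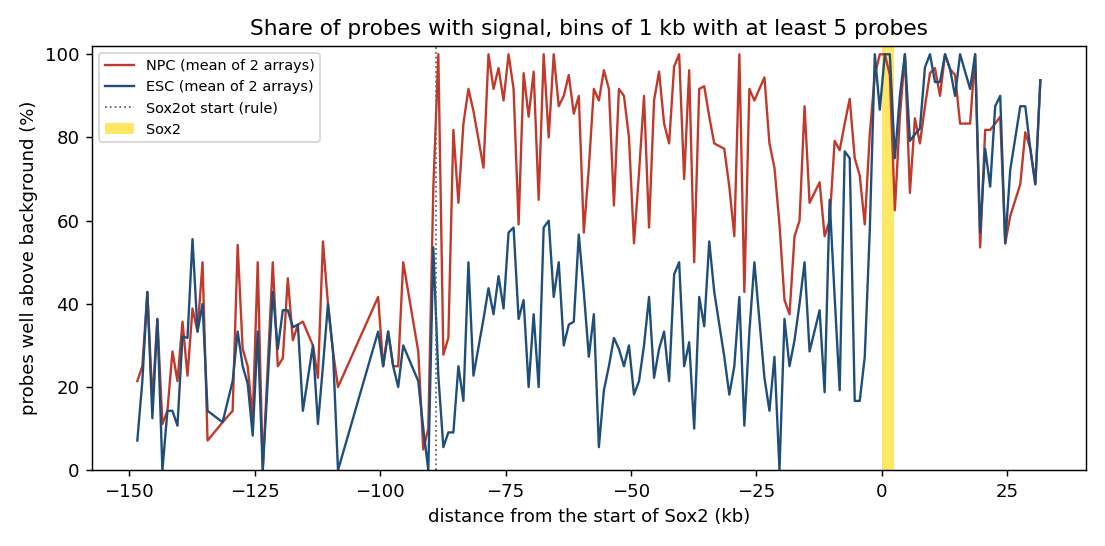
Share of probes well above background in bins of 1 kb with at least 5 probes, as the mean of the 2 arrays of NPC and of ESC, against distance from the start of Sox2. NPC is above ESC in 82 of 84 bins of the left part of Sox2ot, the exceptions being those at 34538001 and 34547001, and all 28 bins right of Sox2 have at least 50% in both cell types. Over the whole array NPC also had the higher share of probes above background.

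The step up in NPC lay near the nominal start of Sox2ot, a border that is not independent of these arrays, and was uneven. In the last 5 kb window of the flank, 34455001-34460000, levels were -4.08 and -4.85 in NPC 1 and NPC 2, against -4.49 and -4.55 in ESC 1 and ESC 2, and the groups overlapped (change 0.06, SE 0.29, limma adjusted p = 0.864). Within that window, 2 probes at 34459639 and 34459819, just before the nominal start of Sox2ot, were already called higher (limma adjusted p = 0.0147 and 0.0125). They were above background on both NPC arrays and on neither ESC array, and were at least 8.04-fold and 2.79-fold higher in NPC. The 1 kb bin that holds both probes, 34459001-34460000, had a change of 0.67, with 67.9% of its probes above background in NPC and 53.6% in ESC. The next 1 kb, 34460001-34461000, had the largest change of any such bin in the left part. Its 11 probes averaged 0.79 and -0.45 in NPC 1 and NPC 2, against -4.66 and -4.81 in ESC 1 and ESC 2, a change of 4.90, and 100% of them were above background in NPC against 22.7% in ESC. In the following 2 bins the change was 0.96 and 0.82, with 27.8% and 31.8% of probes above background in NPC. Other 1 kb peaks of change were 4.31 at 34493001-34494000 and 3.88 at 34486001-34487000. Of 84 bins with at least 5 probes in the left part, 80 had both NPC arrays above both ESC arrays, against 28.8% of all such bins of the array, and the median change was 2.13. In 3 the groups overlapped. In 1, at 34541001-34542000, both NPC arrays lay below both ESC arrays, with -1.86 and -2.28 in NPC 1 and NPC 2, against -1.65 and -1.66 in ESC 1 and ESC 2, and this held for 46.9% of all bins. No test was made on 1 kb bins.

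In the last bins before Sox2 the share of probes with signal in ESC came close to that in NPC, as it also did in single bins further left. At 34538001-34539000 it was 60% in NPC and 65% in ESC, with a change of -0.07, and at 34541001-34542000 it was 83.3% in NPC and 76.7% in ESC. Between these and again after them, ESC shares of 16.7% to 41.7% alternated with one of 75% at 34542001-34543000. The share of probes above background in 1 kb bins was 59.1% in NPC and 27.3% in ESC at 34545001-34546000. In the next bin, at 34546001-34547000, it was 80.8% in NPC and 57.7% in ESC, and at 34547001-34548000 it was 95% in NPC and 100% in ESC. The change was 1.33, 1.59 and 0.40 in these bins, and -0.12 at 34548001-34549000. The 5 kb window around the start of Sox2, 34545001-34550000, had levels of -0.99 and -0.71 in NPC 1 and NPC 2, against -1.20 and -1.57 in ESC 1 and ESC 2, a change of 0.53 (SE 0.20) that did not pass (limma adjusted p = 0.0768).

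**Figure D4:**
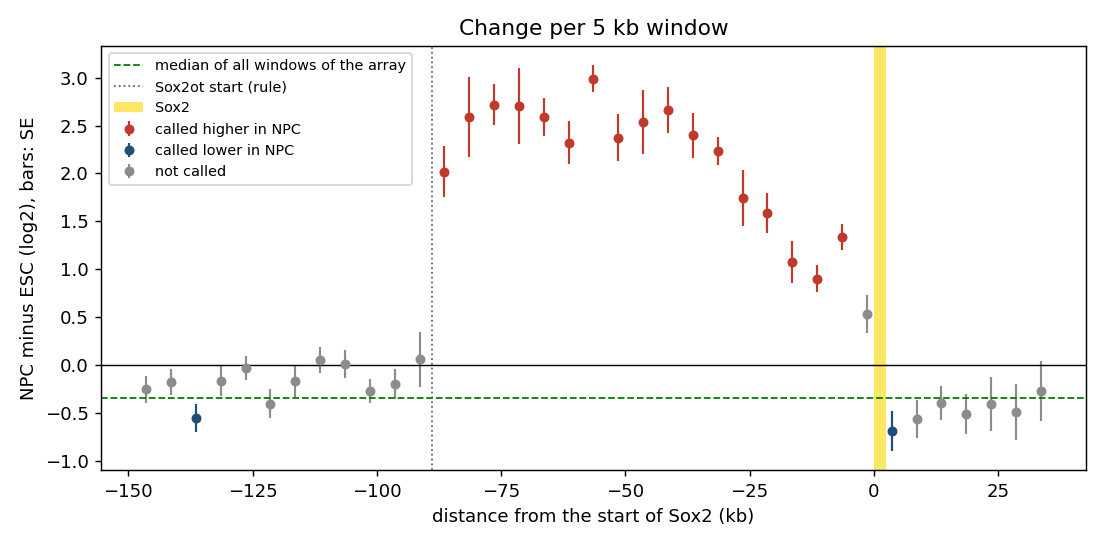
NPC minus ESC per 5 kb window with its standard error, coloured by call, against distance from the start of Sox2, with the median of all windows of the array (-0.34) as a dashed line. The 17 windows of the left part lie between 0.90 and 2.99. Those of the flank lie between -0.56 and 0.06 and those right of Sox2 between -0.56 and -0.27. The windows that span the start and the end of Sox2 lie at 0.53 and -0.69.

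Sox2 itself gave strong signal in both cell types and no call in either direction. Its mean level was 0.13 and 2.18 in NPC 1 and NPC 2, against 1.87 and 1.29 in ESC 1 and ESC 2. The NPC arrays fell on both sides of the ESC arrays. The change was -0.42 (SE 0.72, limma adjusted p = 0.628), or -0.08 relative to the median of all windows. Of the 24 probes, 24 were above background on both ESC arrays and 23 on both NPC arrays. RNA of Sox2 and of Sox2ot cannot be told apart there.

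The disagreement ran along the whole gene. On the 22 probes with a value on all arrays, NPC 1 was below both ESC arrays on 22, with a mean difference of -1.53, whereas NPC 2 was above both ESC arrays on 14 and below both on 2, with a mean difference of 0.57. NPC 2 minus NPC 1 was 2.04 over Sox2, outside the range of the same difference over all 964 windows (-1.66 to 1.71). Over the left part of Sox2ot the order was the other way round, with NPC 1 above NPC 2 in 17 of 17 windows and a difference of -0.53. ESC 2 minus ESC 1 was -0.58 over Sox2. Without NPC 1 the change of Sox2 was 0.60 (limma adjusted p = 0.103), and without NPC 2 it was -1.44 and passed (limma adjusted p = 0.0145). Each such fit assumes that the lone NPC array varies like the ESC arrays. The direction over Sox2 thus depends on which NPC array is used.

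**Figure D5:**
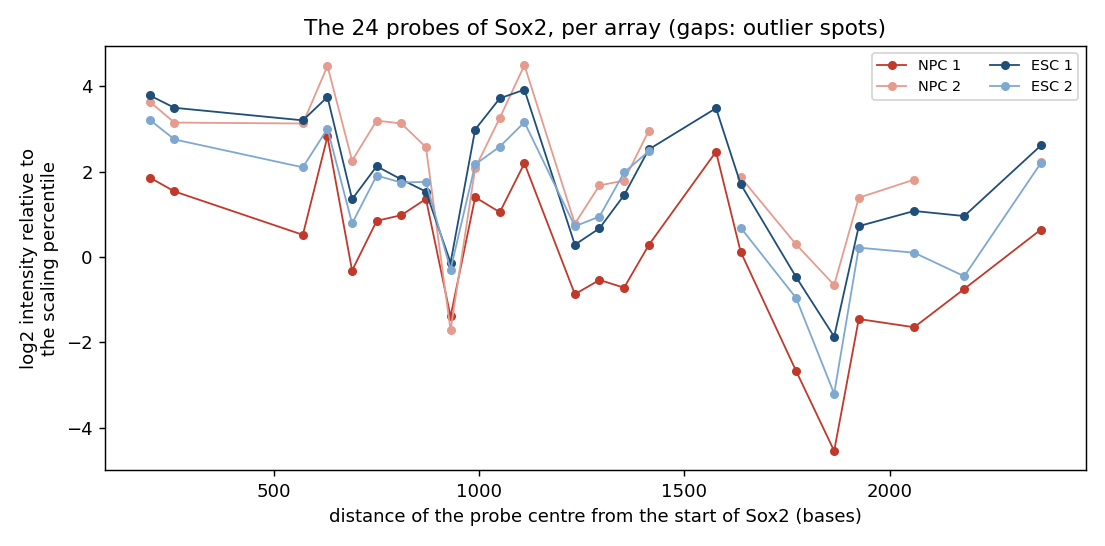
Log2 intensity of the 24 probes of Sox2 on each array, against the distance of the probe centre from the start of Sox2 in bases. NPC 1 is the lowest array on nearly all probes, while NPC 2 mostly lies among or above the ESC arrays.

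No probe of Sox2 was called among 22 tested (limma, Benjamini-Hochberg over 47900 probes). Over the whole array 10.7% of probes were called higher and 1.58% lower. In Sox2, 1 probe was lower at an unadjusted limma p under 0.05. Changes of single probes ran from -1.34 to 0.32, with 18 below 0 and 4 above. The largest, at 34549800-34549859, had -1.39 and -1.72 in NPC 1 and NPC 2, against -0.13 and -0.29 in ESC 1 and ESC 2. It is 1 of the 2 probes on which both NPC arrays lay below both ESC arrays, with a change of -1.34 (SE 0.31, limma adjusted p = 0.0806).

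Right of Sox2, the sequence of Sox2ot carried signal in both cell types, and the difference between them was not called. The strand was not kept, so whether this RNA is Sox2ot or another transcript cannot be told. The level of this part was -1.28 and -1.75 in NPC 1 and NPC 2, against -0.91 and -1.13 in ESC 1 and ESC 2. Both NPC arrays were lower than both ESC arrays by a margin smaller than the gap between the NPC arrays. The change of -0.50 (SE 0.21) did not pass (limma adjusted p = 0.108), and it was -0.16 relative to the median of all windows. It passed in 4 of 13 alternatives with all arrays and without NPC 1 (-0.73, limma adjusted p = 0.0149), and it was -0.26 without NPC 2. Over the alternatives with all arrays it ranged from -0.88 with the percentile over all probes to 0.11 with the array medians of 340 control spots named SRN as scale. Above background were 85.5% and 80.1% of the 331 probes in NPC 1 and NPC 2, against 87.6% and 84.9% in ESC 1 and ESC 2.

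None of the 6 windows wholly in the right part was called by limma. At an unadjusted limma p under 0.05, 1 of the 6 was lower, against 381 of all 964 windows. The changes of the 6 lay between -0.56 and -0.27. In 3 of the 6, both NPC arrays were below both ESC arrays, as in 58.2% of all windows. The window that spans the end of Sox2, 34550001-34555000, was called lower at the edge of the threshold. It had -1.30 and -1.05 in NPC 1 and NPC 2, against -0.27 and -0.70 in ESC 1 and ESC 2, a change of -0.69 (SE 0.21, limma adjusted p = 0.04996), and it lost this call in 10 of 16 alternatives. The next falls by size in the right part, from 34555001 (-0.56), 34565001 (-0.51) and 34575001 (-0.49), did not pass. Windows called lower made up 29.3% of the array, so 2 of 37 in this region, this one and one in the flank, are a smaller share than the background. With a common floor on all arrays, 0 were called lower in the region and 128 over the array.

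Higher calls of single probes in the right part numbered 0 of 329 (11 at an unadjusted p under 0.05 in limma), against 10.7% over the array. Lower calls numbered 8, or 2.43%, against 1.58% over the array. Among them, and named after its values were seen, the probe at 34557690-34557749 had -6.07 and -6.36 in NPC 1 and NPC 2, against -0.94 and -0.27 in ESC 1 and ESC 2. This probe was above background on both ESC arrays and on neither NPC array, and was at least 9.70-fold lower in NPC (limma adjusted p = 0.0104). The part as a whole had 250 probes above background on both NPC arrays and 272 on both ESC arrays.

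Set against each other inside each array, the parts of Sox2ot differed in how they changed. The right part minus the left part was 0.42 and 0.47 in NPC 1 and NPC 2, against 3.10 and 2.95 in ESC 1 and ESC 2. The difference, -2.58, is unaffected by any shift of a whole array and was larger than the spread between arrays of a cell type (pooled SD 0.08). It was -0.99 with normexp and quantile normalization and -3.63 with the median over probes. An exact two-sided permutation test gave p = 0.333, the smallest that 2 against 2 arrays allow. Sox2 minus the whole of Sox2ot was 1.71 and 4.27 in NPC 1 and NPC 2, against 5.02 and 4.55 in ESC 1 and ESC 2, a difference of -1.79 with a pooled SD of 1.3 (exact permutation p = 0.333). NPC 2 lay close to ESC 2, and NPC 1 far below both ESC arrays. The left part minus the upstream flank was 2.89 and 2.45 in NPC 1 and NPC 2, against 0.37 and 0.43 in ESC 1 and ESC 2 (difference 2.27, exact permutation p = 0.333).

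Without Sox2, the Sox2ot interval as a whole rose by 1.37 (SE 0.22, limma adjusted p = 0.0119). This value joins the left part, which rose, with the right part, which did not pass and whose RNA may not be Sox2ot. The change is 1.71 above the array-wide median. Levels of the whole interval were -1.58 and -2.09 in NPC 1 and NPC 2, against -3.15 and -3.26 in ESC 1 and ESC 2. The upstream flank did not pass. Levels there were -4.58 and -4.67 in NPC 1 and NPC 2, against -4.39 and -4.51 in ESC 1 and ESC 2, with a change of -0.18 (SE 0.13, limma adjusted p = 0.282), or 0.16 relative to the median of all windows. With a common floor on all arrays the change of the flank was -0.025. Of its 12 windows 1 was called, lower, against 29.3% of all windows, at 34410001-34415000 (-0.56, SE 0.15, limma adjusted p = 0.0366), where most of the probes were not above background in either cell type (29.5% above it in NPC and 35.2% in ESC). This window lost its call in 8 of 16 alternatives and reversed in 1. The probes of the flank gave 5 higher and 3 lower calls of 482, or 1.04% and 0.622%, against 10.7% and 1.58% of all probes. The higher ones include those at 34459639 and 34459819 given above.

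For each part, the 3 windows elsewhere on the array with the most similar pattern over the 4 arrays were picked. The measure was the root mean square distance of values centred on their own mean. Candidates were 521 windows with at least 50% of probes above background in the mean of NPC or of ESC. The changes and array order of the picked windows follow from this choice and are no support. For the left part of Sox2ot all 3 were on chromosome 12, at 54940001-54945000 (distance 0.019), 54865001-54870000 (0.039) and 55105001-55110000 (0.048), with changes of 2.11, 2.13 and 2.17. They were candidates through NPC alone, with 77.9%, 74.2% and 80.8% of probes above background, against 27.1%, 28.1% and 32.3% in ESC. For Sox2 the nearest were chromosome 2: 74425001-74430000 (distance 0.33, 8 probes), chromosome 13: 63610001-63615000 (0.45) and chromosome 5: 143665001-143670000 (0.49). In each of these 3, NPC 1 was also below NPC 2, as the way of picking them favours, and none was called. For the right part they were chromosome 5: 28540001-28545000 (distance 0.032), chromosome 2: 74695001-74700000 (0.037) and chromosome 5: 29775001-29780000 (0.073). Their changes were -0.51, -0.52 and -0.55, and none was called. For Sox2ot as a whole all 3 were on chromosome 12.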

How the data were processed

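Per the labels' protocols, RNA came from nuclear chromatin, went through whole-transcriptome amplification and received Cy3 in a random-primed reaction. Each sample was hybridised to 1 array in 1 colour. The deposited scanner files give the intensity of each spot after background subtraction by Feature Extraction 11.5.1.1, per the file headers, with probe positions on mm9. Its yes or no marks for spots above background, saturated or outlying (unit other) were also deposited. The series table holds the authors' log2 values, judged from the values; the submitters' processing notes name limma, with settings not given in the sources used here. That table served as an alternative.

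Probes are 60 bases long. From each array's log2 intensity, its 75th percentile was subtracted, taken over those 15356 probes that all arrays mark as well above background. Outlier spots were left out on their array; 9 of the region's probes had one and were not tested singly, and window and interval means on that array used the remaining probes. Windows of 5 kb needed at least 5 probes. Differences are NPC minus ESC, from lmFit and eBayes of limma 3.58.1 (R 4.3.3), and a call is an adjusted p under 0.05 (Benjamini-Hochberg over all windows, all windows plus the 5 intervals, or all probes). Tests were tried on simulated data. Figures used matplotlib 3.10.9. Planned tests of the enhancer, the sequence before it and the sequence past it had no probes; the normexp alternative (offset 50) used median in place of mean spot signals.

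Named windows are the 5 largest changes of each direction in the region and the extremes of each interval; named probes are those called in Sox2, or else the one with the largest change; other probes named were chosen after their values were seen. The borders, members and tests were chosen with earlier results of these data known. Same-numbered arrays of NPC and ESC share only a number. No list of other genes could be placed on mm9, so none is given.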

Additional observations from a re-analysis of the deposited data

How the results depend on the processing

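The rise of the left part of Sox2ot kept its direction and call in 13 of 13 alternatives that used all arrays (0.66 to 3.20), as did that of Sox2ot as a whole (0.38 to 2.03). Leaving out 1 array gave 1.82 to 2.35 and 1.11 to 1.63, neither called without ESC 1 or ESC 2. Without either ESC array 0 windows of the region were called by limma, with 17 higher at an unadjusted p under 0.05 in each case; the spread then rests on the NPC pair. The count of windows higher was 43 of 88 at 2 kb and 9 of 19 at 10 kb, where the number of windows differs, and 0 to 18 with an array left out. Windows lower, 2 here, were 15 when the percentile covered all probes, 10 with each array's median over windows, 6 with normexp, 6 with the authors' values, 1 with each array's median, 1 at 10 kb, and 0 without chromosome 12, with either SRN scaling, with a common floor, with the replicate block or with the median over probes (0 to 4 at an unadjusted p under 0.05), and 0 to 6 with an array left out. Probes higher were 284 to 475 and probes lower 17 to 93 with an array left out, 93 without NPC 1 and 28 without NPC 2; with the replicate block 6 were lower. That block is not a pairing: deviations of ESC 1 and NPC 1 correlated at 0.047 over windows. The right part was called with the all-probe percentile (-0.88), normexp (-0.34), the window median (-0.70) and the authors' values (-0.59), turned to 0.11 with SRN medians, and was -0.73 to -0.26 with an array left out, called without NPC 1. Sox2 turned to 0.18 with those SRN medians and ran from -1.44 to 0.60 with an array left out. The flank was called with the all-probe percentile (-0.56) and turned to 0.033 without chromosome 12, 0.42 with SRN medians, 0.11 with the change per SRN spot and 0.24 as a median over probes; it was -0.24 to -0.12 with an array left out. Right minus left was -0.99 with normexp, -2.20 with the authors' values, -3.06 without dim probes, -3.63 with the median over probes, and -2.66 to -2.51 with an array left out; Sox2 minus Sox2ot was -3.07 to -0.52 there. With the SRN medians the windows from 34410001, 34555001, 34565001 and 34575001 turned to 0.048, 0.044, 0.094 and 0.11. The 5 windows with the largest rise kept their call in each of 12 alternatives with all arrays and lost it without ESC 1 or ESC 2. The scaling by the median over windows, that by the change per SRN spot, the exclusion of any outlying probe and a wider Sox2 interval were added after seeing the data. The cause of these changes was not tested. For windows of 2 kb and 10 kb, shares over the whole array are not given here.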

Other observations

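Probes with signal on both arrays of one cell type and on neither of the other were also counted outside the left part of Sox2ot. The upstream flank had 17 with signal in NPC alone and 7 with signal in ESC alone, of 482 probes. The right part had 3 with signal in NPC alone and 4 with signal in ESC alone, of 331 probes, and Sox2 had none of either kind. In the left part 16 of 84 bins of 1 kb had at least 50% of their probes above background in ESC, against 79 in NPC. In the right part all 28 bins with at least 5 probes did so in both cell types. Shares over the whole array are not given for these counts, and NPC arrays marked more of all probes above background than ESC arrays did.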
